A study of Homo sapiens with 6 samples.

Results

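Transcript levels of 39 genes of mitotic kinases, the spindle, the centrosome and cytokinesis were compared between libraries labelled GFP and libraries labelled GFP-CCNB1IP1. The members were chosen by name, with earlier results of these libraries known. All 39 were found by an exact match of the gene name among the 53492 genes of each table. RNA sequencing of polyadenylated RNA gave 6 libraries, 3 per group, from cells labelled SH-SY5Y, a human neuroblastoma line. The GFP libraries are labelled as transfected with pCS2-eGFP-N, an expression vector for green fluorescent protein, and the GFP-CCNB1IP1 libraries with pCS2-eGFP-CCNB1IP1, which by its name joins that protein to CCNB1IP1, a ubiquitin ligase that interacts with cyclin B1. Both groups share the line and the vector backbone, and below "with GFP" and "with GFP-CCNB1IP1" mean the 3 libraries of that label, in the order of replicates 1 to 3. The labels give no time after transfection, no share of cells transfected and no statement that replicates were separate cultures, so p-values measure only the spread between these libraries, which may be technical.

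Against the label of a human line, all 53492 identifiers were those of mouse genes, on 19 numbered chromosomes and the other sequences, and 0 of them matched a table of 62700 human identifiers. The values below are therefore given under mouse gene names, and the species of the RNA itself was not tested. Mouse Ccnb1ip1 was close to 0 in every library, from 0.0334 to 0.125 FPKM (fragments per kilobase of transcript, scaled to the depth of the library) in the GFP libraries and at most 0.191 FPKM in the GFP-CCNB1IP1 libraries, so it does not check the labels if the introduced sequence was human. Of 8 noradrenergic neuroblast markers, 7 had a mean of at least 1 FPKM, with Phox2a at 107.1 FPKM and Hand2 at 128.2 FPKM in the GFP libraries. The exception was Dbh, the noradrenaline-forming enzyme, with means of 0.862 and 0.471 FPKM. Relative depth, read from the deposited intervals with the GFP mean set at 1, was between 0.950 and 1.06 in all libraries other than GFP-CCNB1IP1 replicate 2, which was at 0.743.

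In a dividing cell, Aurora and polo-like kinases drive entry into mitosis, the maturation of centrosomes and the building of the spindle. The chromosomal passenger complex, which carries Aurora B, corrects faulty attachments of chromosomes and then moves to the middle of the spindle. There PRC1, centralspindlin and ECT2 set the place of the cleavage furrow, and CEP55 starts the final cut. Many of these genes are transcribed mainly in G2 and mitosis, so in bulk RNA their level is a known reading of how many cells are dividing. In these bulk libraries, fewer cells in G2 or mitosis and less RNA per such cell cannot be told apart.

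Most of these genes were lower in the GFP-CCNB1IP1 libraries by about 5 to 32% of the GFP mean, and no difference of a single gene passed the test over all genes. Mki67, which encodes the Ki-67 antigen of dividing cells, averaged 28.4 ± 0.641 FPKM (SD, n = 3, as for all values with ± below) with GFP and 20.7 ± 1.31 FPKM with GFP-CCNB1IP1. Hmmr, a spindle protein gene, had the farthest ratio of means from 1 among the members, with 10.2 ± 1.35 and 6.90 ± 1.31 FPKM. Levels ranged from a mean of 2.76 FPKM over the 6 libraries for Cep152 to 269.9 FPKM for Racgap1, and all 39 members passed the filter of a mean of at least 1 FPKM.

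**Figure D1:**
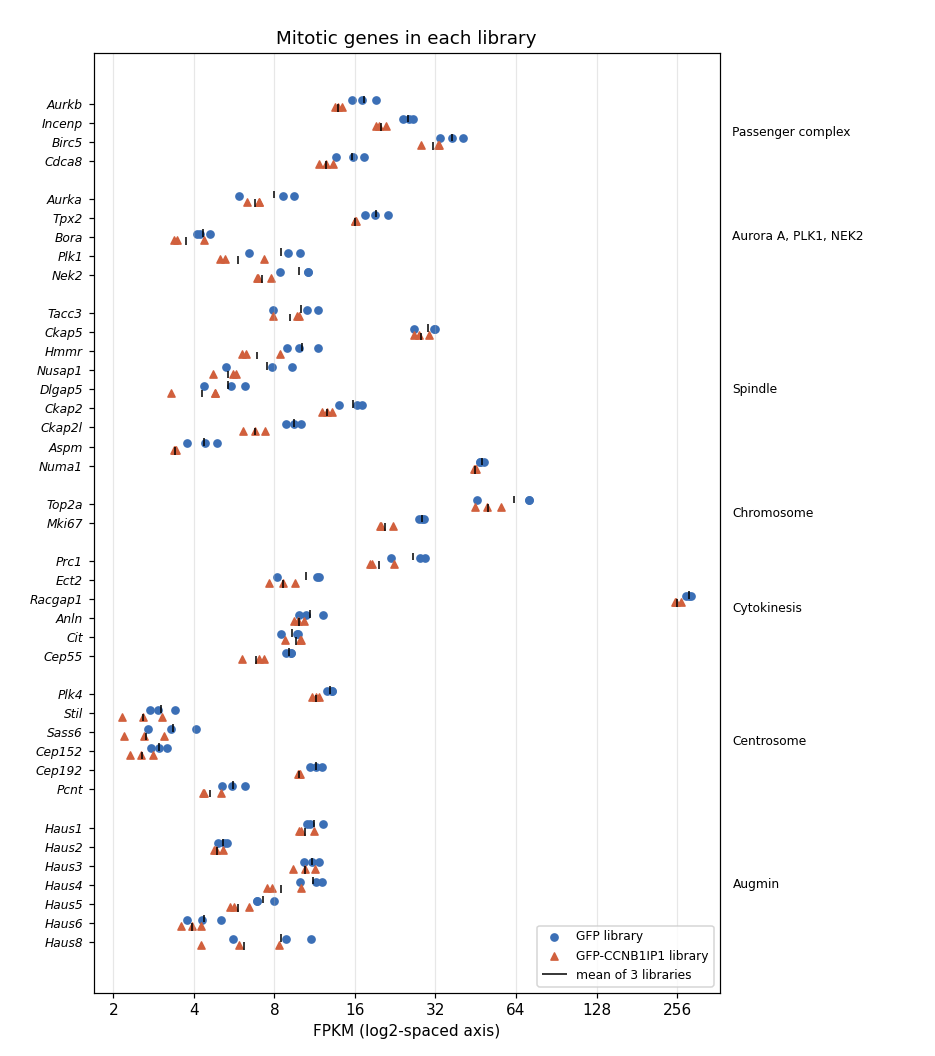
FPKM of each of the 39 genes in the 3 GFP libraries (blue circles) and the 3 GFP-CCNB1IP1 libraries (orange triangles), on a log2-spaced axis, with the mean of each group as a black tick. Racgap1 stands apart at 251.7 FPKM or more in every library, and Cit is the 1 gene whose GFP-CCNB1IP1 mean lies to the right of its GFP mean.

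The test was limma on log2(FPKM + 1) over all genes that passed the filter, with Benjamini-Hochberg adjustment. Of the 39 members, 0 passed at an adjusted p under 0.05, with adjusted p-values from 0.176 to 0.901. Over all 13231 genes tested, 1 passed in either direction (Gm20305, named after its value was seen), or 0.00756%, and among lower genes 0 passed, or 0%. The members had 38 log2 fold changes below 0, or 97.4%, where 48.6% of all genes tested were below 0. At an unadjusted p under 0.05, 20 members (51.3%) were lower and 0 were higher, against 5.77% lower and 5.59% higher over all genes. The 3 GFP-CCNB1IP1 libraries all lay below the 3 GFP libraries for 18 members (46.2%), against 8.90% of all genes. The reverse order was found for 0 members and for 8.69% of all genes. The median log2 fold change of the members was -0.25, beside 0.004 for all genes tested. These counts describe a list that was put together with earlier results of these libraries known, and they are not a test of the list. The 8.90% of all genes also stands beside each count of genes lower without overlap in the role groups below.

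**Figure D2:**
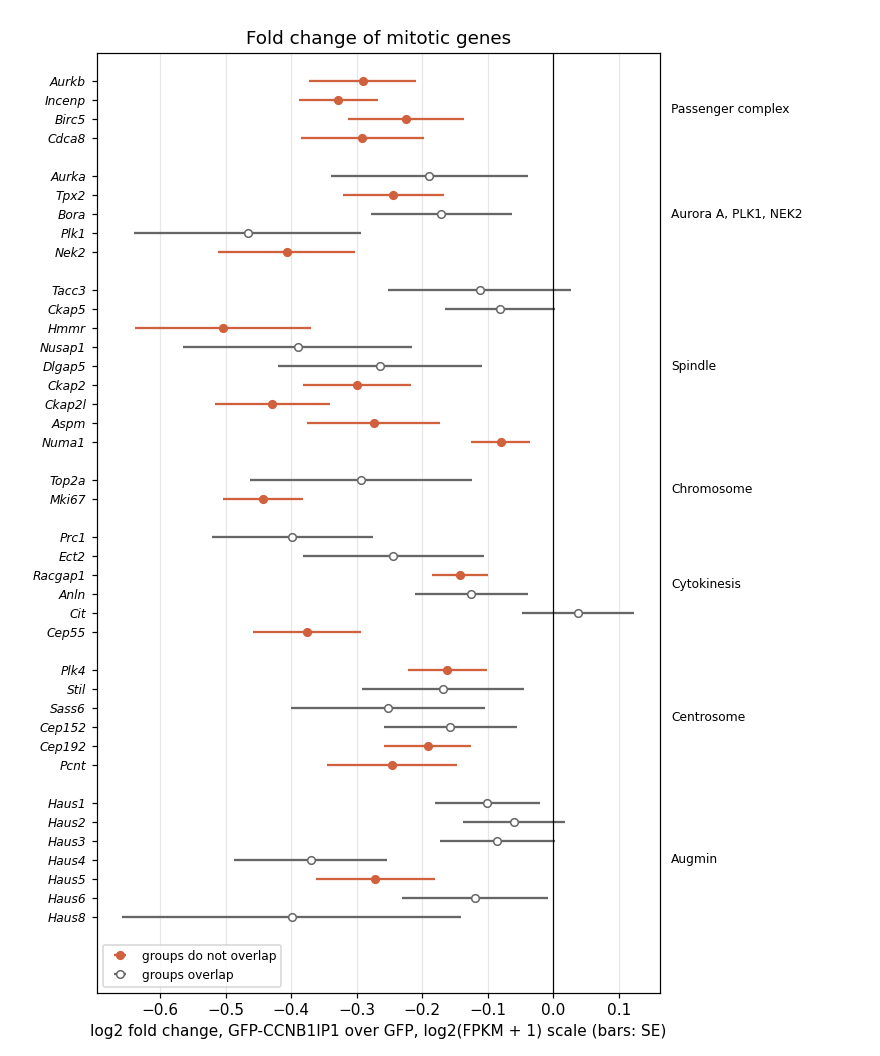
Log2 fold change of each of the 39 genes, GFP-CCNB1IP1 over GFP on the log2(FPKM + 1) scale, with bars of 1 standard error; filled orange points mark the 18 genes whose groups do not overlap, open grey points the rest. The points run from -0.50 for Hmmr to 0.04 for Cit, and 38 of 39 lie left of 0.

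The 4 genes of the chromosomal passenger complex were lower without overlap of the groups, each by 14.9 to 21.1% of its GFP mean. Incenp (ENSMUSG00000024660.10, chromosome 19, 9849660 to 9876915; positions here and below are as deposited, and their build is not given in the sources used here) encodes the scaffold that binds and activates Aurora B. It had 26.3, 24.1 and 25.4 FPKM with GFP and 21.0, 19.2 and 19.7 FPKM with GFP-CCNB1IP1. The groups did not overlap, and GFP-CCNB1IP1 replicate 2 was lowest. Its log2 fold change was -0.33 (SE 0.0605; limma, adjusted p = 0.176).

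Aurkb (ENSMUSG00000020897.13, chromosome 11, 68936473 to 68942490) encodes the Aurora B kinase itself. It had 19.2, 16.96 and 15.6 FPKM with GFP and 14.3, 13.4 and 13.8 FPKM with GFP-CCNB1IP1. The GFP libraries were spread more widely than the others, and the lowest of them stood just above the GFP-CCNB1IP1 range. The fitted log2 fold change came to -0.29 (SE 0.0817, limma adjusted p = 0.285). Birc5 (ENSMUSG00000017716.16, chromosome 11, 117740077 to 117746569) encodes survivin, which with borealin brings the complex to centromeres, and it had the highest level of the 4 genes. Its 40.5, 36.8 and 33.2 FPKM with GFP stood against 33.0, 28.3 and 32.8 FPKM with GFP-CCNB1IP1. GFP replicate 3 and GFP-CCNB1IP1 replicate 1 nearly met, and the log2 fold change was -0.23 (SE 0.0885, limma adjusted p = 0.401). Cdca8, the borealin gene, had means of 15.5 ± 1.87 and 12.5 ± 0.747 FPKM.

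Of the 5 genes around Aurora A, polo-like kinase 1 and NEK2, all had lower means and 2 were lower without overlap. Nek2 (ENSMUSG00000026622.16, chromosome 1, 191553556 to 191565162) encodes a kinase that loosens the link between centrosomes before they part. It had 10.7, 8.37 and 10.7 FPKM with GFP and 6.97, 6.90 and 7.76 FPKM with GFP-CCNB1IP1. GFP replicate 2 was the low library of its group and still lay above all 3 GFP-CCNB1IP1 libraries. This gave a log2 fold change of -0.41 (SE 0.104; limma gave an adjusted p of 0.270).

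Tpx2 (ENSMUSG00000027469.17, chromosome 2, 152689884 to 152737241) encodes the spindle protein that activates Aurora A on microtubules. It had 21.3, 17.5 and 18.9 FPKM with GFP against 16.14, 15.97 and 15.99 FPKM with GFP-CCNB1IP1. The GFP-CCNB1IP1 libraries were nearly identical, and the spread lay among the GFP libraries. The log2 fold change was -0.24 (SE 0.0765, limma adjusted p = 0.321).

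The 2 kinases at the centre of the pathway overlapped between groups, and they are given although the naming rule did not take them. Plk1, the gene of polo-like kinase 1, had 9.96, 6.45 and 9.00 FPKM with GFP and 5.21, 5.01 and 7.30 FPKM with GFP-CCNB1IP1. GFP replicate 2 lay below GFP-CCNB1IP1 replicate 3, and the log2 fold change of -0.47 had an SE of 0.173 (limma, adjusted p = 0.378). Aurka, the Aurora A gene, had 9.499, 5.89 and 8.62 FPKM with GFP and 6.98, 6.34 and 7.01 FPKM with GFP-CCNB1IP1. Here GFP replicate 2 was the lowest of all 6 libraries, and the log2 fold change of -0.19 was little larger than its SE of 0.150. Bora, whose product helps Aurora A activate PLK1, had overlapping groups with means of 4.31 and 3.74 FPKM.

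All 9 spindle genes had lower means, with log2 fold changes from -0.50 to -0.08, and 5 were lower without overlap. Ckap2l (ENSMUSG00000048327.7, chromosome 2, 129110130 to 129139132), which encodes a spindle pole protein, had 10.1, 8.83 and 9.44 FPKM with GFP and 6.79, 6.11 and 7.40 FPKM with GFP-CCNB1IP1. The groups were separated by more than the SD of either, 0.615 and 0.648 FPKM. The fitted log2 fold change came to -0.43 (SE 0.0877, limma adjusted p = 0.201).

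Hmmr (ENSMUSG00000020330.17, chromosome 11, 40592222 to 40624249) encodes a microtubule-binding protein of spindle poles that was first known as a hyaluronan receptor. Its levels were 11.6, 8.95 and 9.93 FPKM with GFP and 6.24, 6.04 and 8.41 FPKM with GFP-CCNB1IP1. GFP-CCNB1IP1 replicate 3 stood above its group and close to GFP replicate 2. This gave a log2 fold change of -0.50 (SE 0.134; limma gave an adjusted p of 0.272). Numa1 (ENSMUSG00000066306.14, chromosome 7, 101583318 to 101664171), whose product tethers microtubules at the poles, was the most abundant spindle gene. It had 47.1, 46.9 and 48.7 FPKM against 44.5, 44.8 and 45.5 FPKM. The groups did not overlap, yet the difference was small, at a log2 fold change of -0.08 (SE 0.0449; limma gave an adjusted p of 0.545).

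Among the other spindle genes, Ckap2 had means of 15.7 ± 1.57 and 12.6 ± 0.539 FPKM and Aspm, a gene of spindle pole focusing in neural progenitors, had 4.35 ± 0.568 and 3.41 ± 0.0283 FPKM, both without overlap. Nusap1 and Dlgap5, microtubule-associated genes of the mitotic spindle, had overlapping groups with means of 7.49 and 5.36 FPKM and of 5.34 and 4.29 FPKM. The partners Tacc3 and Ckap5, which act together on microtubules, both had overlapping groups, and their log2 fold changes were no larger than their SE, at -0.11 (SE 0.140) for Tacc3 and -0.08 (SE 0.0841) for Ckap5. Ckap5, a microtubule polymerase gene, was at 30.0 ± 2.99 and 28.2 ± 1.86 FPKM.

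The 2 chromosome genes differed in their spread. Mki67 (ENSMUSG00000031004.9, chromosome 7, 135291513 to 135318090), which coats mitotic chromosomes, had 29.0, 28.6 and 27.8 FPKM with GFP and 19.8, 20.1 and 22.2 FPKM with GFP-CCNB1IP1. All libraries of a group were close together and the groups lay over 5 FPKM apart. Here the log2 fold change was -0.44 (SE 0.0611, limma unadjusted p = 9.79e-05 and adjusted p = 0.176), the smallest unadjusted p among the members.

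Top2a (ENSMUSG00000020914.18, chromosome 11, 98883769 to 98915015), the gene of the topoisomerase that untangles chromosomes, had 71.5, 45.9 and 71.5 FPKM with GFP and 44.8, 49.8 and 56.5 FPKM with GFP-CCNB1IP1. GFP replicate 2 lay within the GFP-CCNB1IP1 range, far below the other GFP libraries. The fitted log2 fold change came to -0.29 (SE 0.170, limma adjusted p = 0.560), and it was -0.50 without GFP replicate 2 (adjusted p = 0.194) and -0.19 without GFP replicate 1 (adjusted p = 0.776).

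Of 6 cytokinesis genes, 5 had lower means and 2 were lower without overlap. Cep55 (ENSMUSG00000024989.16, chromosome 19, 38043459 to 38062871), whose product recruits the abscission machinery to the midbody, had 9.24, 8.82 and 9.26 FPKM with GFP and 7.03, 6.08 and 7.30 FPKM with GFP-CCNB1IP1. The groups were clearly apart, at a log2 fold change of -0.38 (SE 0.0821; limma gave an adjusted p of 0.220). Racgap1 (ENSMUSG00000023015.15, chromosome 15, 99518377 to 99549537), which encodes a subunit of centralspindlin, had 283.7, 276.1 and 289.8 FPKM against 251.7, 265.0 and 253.2 FPKM. Its groups did not overlap, and the log2 fold change was -0.14 (SE 0.0425, limma adjusted p = 0.305).

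Racgap1 was the 169th most abundant of the 13231 genes tested by GFP mean, whereas the next member, Top2a, was at rank 1027. Prc1, which bundles the microtubules of the central spindle, had means of 26.4 ± 4.03 and 19.7 ± 2.37 FPKM, and its groups overlapped because GFP replicate 2, at 21.8 FPKM, lay below GFP-CCNB1IP1 replicate 3, at 22.5 FPKM. Ect2, the exchange factor that activates RhoA at the furrow, had 10.5 ± 1.99 and 8.62 ± 0.951 FPKM, and the furrow scaffold gene Anln had 10.9 ± 1.19 and 9.86 ± 0.448 FPKM. Cit, the citron kinase gene, was the 1 member with a higher mean in the GFP-CCNB1IP1 libraries, with 9.80, 8.48 and 9.70 FPKM against 8.74, 9.98 and 10.1 FPKM. Those groups overlapped, and the log2 fold change of 0.04 was smaller than its SE of 0.0856; it was -0.02 without GFP replicate 2.

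Centrosome genes were mostly low in level, and all 6 had lower means, with log2 fold changes from -0.25 to -0.16. Plk4 (ENSMUSG00000025758.11, chromosome 3, 40754454 to 40771318), the kinase gene that starts centriole duplication, had 13.1, 12.5 and 13.1 FPKM with GFP and 11.8, 11.5 and 11.1 FPKM with GFP-CCNB1IP1. The libraries of each group agreed closely, and the log2 fold change was -0.16 (SE 0.0603, limma adjusted p = 0.380). Cep192, which recruits pericentriolar material, had 12.1, 11.4 and 10.8 FPKM against 9.83, 9.90 and 9.97 FPKM. The GFP-CCNB1IP1 libraries all lay below the GFP libraries, at a log2 fold change of -0.19 (SE 0.0657; limma gave an adjusted p of 0.349).

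Pcnt, the pericentrin gene, was the third centrosome gene without overlap, with 5.62 ± 0.582 and 4.58 ± 0.414 FPKM. The centriole assembly genes Stil, Sass6 and Cep152, which act with PLK4, had overlapping groups at means between 2.55 and 3.35 FPKM.

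Augmin, the 8-subunit complex through which new microtubules arise on the sides of spindle microtubules, was represented by 7 members at means between 4.15 and 10.8 FPKM. All 7 had lower means in the GFP-CCNB1IP1 libraries, and the median of their log2 fold changes was -0.12. Of the 7, 1 was lower without overlap, where 8.90% of all genes were. That gene was Haus5 (ENSMUSG00000078762.11, chromosome 7, 30353136 to 30364419), with 6.92, 7.94 and 6.89 FPKM with GFP and 6.41, 5.63 and 5.46 FPKM with GFP-CCNB1IP1. GFP replicate 2 was the highest library here, and the log2 fold change was -0.27 (SE 0.0902, limma adjusted p = 0.335).

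Haus4 (ENSMUSG00000022177.10, chromosome 14, 54779242 to 54792073) had 12.1, 9.97 and 11.5 FPKM against 10.04, 7.48 and 7.86 FPKM. GFP replicate 2 and GFP-CCNB1IP1 replicate 1 just overlapped, and the log2 fold change was -0.37 (SE 0.117, limma adjusted p = 0.321). Haus1, the most abundant augmin member, had 10.9, 10.6 and 12.2 FPKM against 9.88, 11.3 and 10.1 FPKM, with clear overlap. Haus2, Haus3 and Haus6 had log2 fold changes from -0.12 to -0.06, and Haus8 varied widely, with 8.45 ± 2.70 and 6.16 ± 2.07 FPKM. The remaining subunit, Haus7, had 5.27 ± 0.314 and 4.996 ± 0.495 FPKM.

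Many of the 39 genes shared an order of libraries within the GFP group. GFP replicate 2 was the lowest GFP library for 29 of the 39 members, where 33.9% of all genes tested had it lowest, and GFP replicate 1 was the highest for 25 members, against 34.2% of all genes. As a median over the members, the deviation from each gene's mean of 6 libraries was 0.25, 0.01 and 0.15 with GFP and -0.10, -0.16 and -0.095 with GFP-CCNB1IP1, on the log2(FPKM + 1) scale. GFP replicate 2 therefore stood between the other GFP libraries and the GFP-CCNB1IP1 libraries. Its relative depth was 1.06, and the lowest median, that of GFP-CCNB1IP1 replicate 2, came with the lowest depth, 0.743; the part of depth in the result was not tested. The 8 noradrenergic markers summed to 306.3, 260.6 and 282.5 FPKM with GFP and 268.9, 257.0 and 275.8 FPKM with GFP-CCNB1IP1, with GFP replicate 2 again the lowest of its group.

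Of the 21 members whose groups overlapped, 13 no longer overlapped when GFP replicate 2 was left out, among them Plk1, Aurka, Top2a, Prc1 and Nusap1. As that library was the lowest of its group for 29 members, leaving it out could only raise the lowest GFP value for them. Without that library 31 members were lower without overlap, against 15.4% of all genes. The count was 19 without GFP replicate 1 and 20 without GFP replicate 3. No share of all genes is given for either, so those counts are not set against the count from all libraries. The median log2 fold change of the members was -0.31 without GFP replicate 2. It was -0.18 without GFP replicate 1, and 0 members passed at an adjusted p under 0.05 in limma without either library. Without GFP replicate 2, 24 members were lower at an unadjusted p under 0.05, where 6% of all genes were lower in that way, and without GFP replicate 1 the count was 14, where 4.46% of all genes were.

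**Figure D3:**
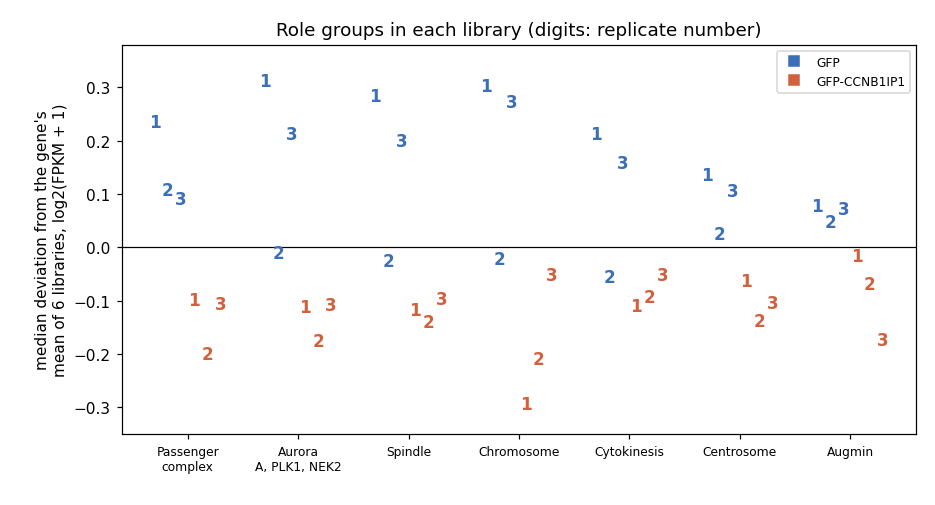
Median deviation of each role group from its genes' means of 6 libraries, on the log2(FPKM + 1) scale, per library; digits give the replicate number, blue for GFP and orange for GFP-CCNB1IP1. GFP replicate 2 lies near or below 0 in the groups of Aurora A and PLK1, spindle, chromosome and cytokinesis genes, but above 0 with the other GFP libraries for the passenger complex and augmin.

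The summed level of the 39 genes was 863.5, 766.7 and 841.1 FPKM with GFP and 697.7, 698.7 and 718.2 FPKM with GFP-CCNB1IP1. Racgap1 alone made up much of it. Without Racgap1 the sums were 579.8, 490.6 and 551.3 FPKM against 446.0, 433.7 and 465.0 FPKM, a ratio of means of 0.829. By role, the ratio of summed means was 0.777 for the chromosome pair, 0.793 for the Aurora A and PLK1 group, 0.818 for the passenger complex, 0.853 for augmin, 0.857 for the centrosome, 0.868 for the spindle and 0.891 for cytokinesis. These sums weigh abundant genes most, such as Racgap1, Numa1 and Ckap5, and the median log2 fold change gives another order, with the spindle at -0.27, the centrosome at -0.18 and augmin at -0.12. Differences between these role groups were not tested.

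Other genes of the same processes, listed by function with earlier results of these libraries known, were mixed in direction. Of 78 tested genes on these 5 lists, 47 had lower and 31 higher log2 fold changes, with a median of -0.03. Of all genes tested, 48.6% were below 0. At an unadjusted p under 0.05 in limma, 13 were lower and 1 was higher, where 5.77% of all genes were lower and 5.59% higher. Without overlap of the groups, 12 were lower and 5 higher, against 8.90% and 8.69% of all genes. After adjustment over all genes, 0 passed. The same shares of all genes stand beside the counts of the single lists below. Among other mitotic kinases and their regulators, the mitotic kinase gene Pbk had 14.4, 12.7 and 13.9 FPKM with GFP and 10.2, 10.3 and 9.94 FPKM with GFP-CCNB1IP1 (limma, adjusted p = 0.176). Those groups did not overlap. Haspin, whose product marks the place where the passenger complex docks, had 2.73 ± 0.352 and 2.06 ± 0.0806 FPKM.

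In the list of other spindle genes, 5 of 19 were lower and 1, the dynein regulator gene Ndel1, was higher at an unadjusted p under 0.05. The partners Spag5 and Knstrn, which form a complex at spindle poles and kinetochores, had 12.9 ± 1.42 and 9.501 ± 0.183 FPKM and 28.8 ± 2.30 and 23.9 ± 1.36 FPKM, both without overlap. Of 11 genes around the gamma-tubulin ring complex, which seeds microtubules, 2 were lower in that way. Tubgcp3 had 24.1 ± 1.68 and 19.9 ± 0.550 FPKM, and Tubg1, the gamma-tubulin gene, had 47.9 ± 3.11 and 43.1 ± 0.762 FPKM.

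Of 20 other centrosome genes, 2 were lower at an unadjusted p under 0.05, the linker gene Cep250 (6.48 ± 0.411 and 4.84 ± 0.876 FPKM) and Ccp110, which caps centrioles (9.32 ± 0.436 and 8.05 ± 0.654 FPKM). Among other cytokinesis genes, 9 of 15 tested genes had higher means, the list median was 0.04, and at an unadjusted p under 0.05 1 gene was lower and 0 were higher. That gene was Arhgap11a, a RhoA regulator with 9.43 ± 1.60 and 7.43 ± 0.382 FPKM. Myh9, a non-muscle myosin gene, had 152.7 ± 4.99 and 163.4 ± 3.86 FPKM and was higher without overlap, as were the septin genes Septin2 and Septin7.

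The transcription factors that drive late cell cycle genes were given whatever their result. Foxm1 had 18.1, 15.3 and 16.4 FPKM with GFP and 12.3, 11.9 and 11.9 FPKM with GFP-CCNB1IP1. Again GFP replicate 2 was the low library of its group, and the groups did not overlap (log2 fold change -0.43, SE 0.0731, limma adjusted p = 0.176). Mybl2 had 10.8, 8.90 and 9.43 FPKM against 7.15, 7.91 and 8.34 FPKM, also without overlap. Of 13 measured genes on this list, 3 were lower at an unadjusted p under 0.05, where 5.77% of all genes were. The third was Tfdp1, the partner of E2F factors, with 79.2 ± 1.80 and 69.9 ± 4.70 FPKM. The other 10, among them the NF-Y genes and the MuvB subunits Lin9, Lin37 and Lin52, had unadjusted p-values of 0.183 or more.

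**Figure D4:**
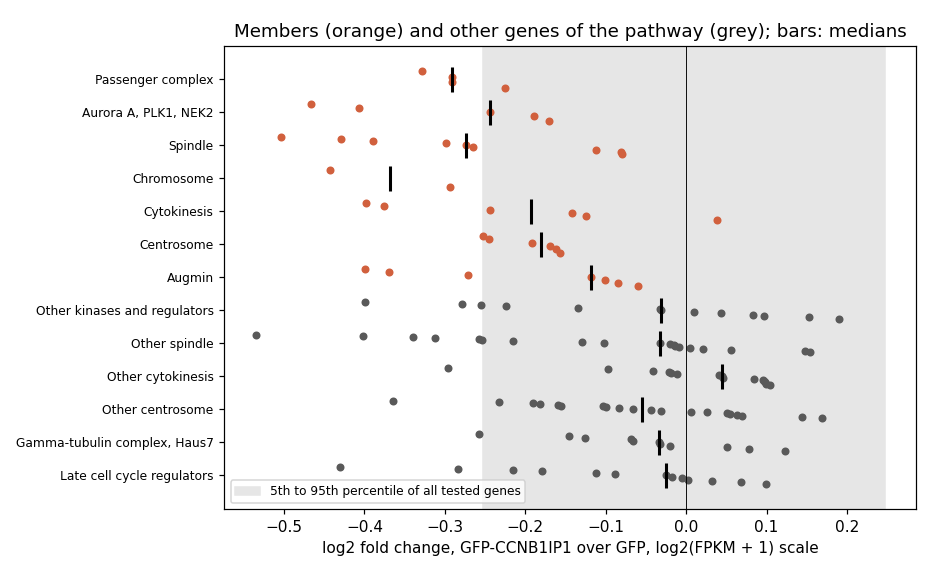
Log2 fold change of each tested gene by list, GFP-CCNB1IP1 over GFP on the log2(FPKM + 1) scale, for the 39 members (orange) and the other pathway lists (grey), with list medians as black bars and the 5th to 95th percentile of all tested genes, -0.25 to 0.25, as a grey band. Medians of the 7 member groups lie between -0.37 and -0.12, those of the other lists between -0.05 and 0.04.

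Immune, fibroblast and epithelial markers were low in every library, and the immune sum of GFP-CCNB1IP1 replicate 2 stood out. The 4 immune markers summed to 0.272 to 0.690 FPKM in the GFP libraries, to 0.341 and 0.465 FPKM in GFP-CCNB1IP1 replicates 1 and 3, and to 3.62 FPKM in GFP-CCNB1IP1 replicate 2. Of the 3.62 FPKM, Csf1r gave 2.05 FPKM, Cd68 1.47 FPKM and Ptprc 0.111 FPKM. In the other libraries Cd68 lay between 0.177 and 0.678 FPKM and Ptprc was at 0. The 4 fibroblast markers summed to between 1.73 and 3.01 FPKM and between 2.21 and 3.06 FPKM. The 4 epithelial markers stayed at or below 0.376 FPKM, with Epcam and Krt18 at 0 throughout. These lists do not cover every other cell type that was examined, and the part of other cell types in the lower mitotic genes was not tested.

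The precision behind the members limits what could be seen. Read as if from counting alone, the deposited intervals imply from 29.7 fragments, for Dlgap5 in its lowest library, to 3898 fragments, for Racgap1. These are readings of the interval width and not counts of fragments, as any other uncertainty in the interval would lower them. Strand was not stated, and 9 members share their locus with another annotated gene at a mean of 1 FPKM or more. The neighbour was the more abundant for Tacc3 (Tmem129, 45.7 FPKM), Sass6 (Trmt13, 10.1 FPKM), Haus1 (Atp5a1, 172.8 FPKM) and Haus8 (Myo9b, 21.0 FPKM), so how reads were divided there is uncertain. For Cdca8, Nusap1, Numa1, Prc1 and Haus2 the neighbour was less abundant than the member.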

How the data were processed

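Polyadenylated RNA of 6 libraries, 3 per group, was fragmented and copied from random primers after capture with oligo-dT, per the labels' protocols. The authors deposited FPKM per gene with the bounds of an interval and a status, 1 table per library, per the file headers. The submitters' processing notes list HISAT2 and Cufflinks and give no version; build and annotation are not given in the sources. Rows of 1 identifier were summed, giving 53492 genes. FPKM were used unscaled. Genes with a mean of at least 1 FPKM (13231) were tested on log2(FPKM + 1), a scale that understates changes of low genes, with limma 3.58.1 in R 4.3.3, using a mean-variance trend, no block, 2-sided p-values and Benjamini-Hochberg adjustment. An exact test of 3 against 3 cannot go below p = 0.1. Implied fragments are the square of FPKM over its standard error, taking the upper bound as 2 standard errors above. They read the interval width and are not counts of fragments. Relative depth used 2244 genes at 5 to 50 implied fragments. Ccnb1ip1 was read as deposited.

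The members and lists were chosen with earlier results of these data known. Values in every library are given for the 2 members of each role group with the smallest unadjusted p and the member with the highest mean, any higher member without overlap, Foxm1 and Mybl2; the 2 genes of each other list with the smallest unadjusted p are given by group means, Pbk also by library; Plk1, Aurka, Cit and the genes singled out in the text beside these were chosen after their values were seen. Lin54 was not found by name, and Septin2 stood on 2 identifiers, of which the more abundant was used. The fit was checked on simulated data with independent noise for each gene, which does not cover genes that move together by library. Alternatives were pseudocounts of 0.1 and 5, no filter, a mean of at least 5 FPKM, median-of-ratios scaling, quantile normalization, TPM, a replicate block, no trend, and each library left out. No 2 libraries held the same values (Pearson correlations of log2 values across genes, 0.984 to 0.988). The result of 1 further list of cell type markers is not reported here, so the marker levels given are incomplete.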

Additional observations from a re-analysis of the deposited data

How the results depend on the processing

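Of the 39 members, 0 passed at an adjusted p under 0.05 in limma under any of the 15 alternatives, where adjusted p-values ran from 0.142 (Mki67, quantile normalization) to 0.995. The count of lower members was 38 of 39 in the alternatives that kept all members, other than without GFP replicate 2, where Cit had a log2 fold change of -0.0222 and 39 were lower (0.0048 to 0.0982 without another library); with a mean of at least 5 FPKM it was 31 of 32. Members lower at an unadjusted p under 0.05 in limma stayed between 14 and 24. Of all genes, 5.77% were lower in that way in the main fit. The share was 4.46% without GFP replicate 1 (14 members) and 6% without GFP replicate 2 (24 members). Members lower without overlap ranged from 17 to 19 with all libraries kept. With a library left out there were 31 without GFP replicate 2 and from 19 to 23 without any other library. Fewer libraries make overlap rarer by construction, and GFP replicate 2 was the lowest of its group for 29 members. Shares of all genes are not given for most of these settings, so the counts describe the members only. The median log2 fold change of all members ranged from -0.31 to -0.18 with a library left out. It was -0.155 with a pseudocount of 5, which shrinks differences by construction. Genes called over the whole table numbered 0 with a pseudocount of 5, with no filter, without the trend and with the replicate block, and with a library left out from 0 (without GFP replicate 2 or 3) to 4 (without GFP replicate 1), with 2 without GFP-CCNB1IP1 replicate 2; the cause was not tested. With the replicate block 20 members were lower at an unadjusted p under 0.05 in limma, with no share of all genes given for that setting. Correlations of deviations between libraries of the same replicate number were 0.0226, -0.0093 and -0.0107. Those between libraries of other numbers ran from -0.0375 to 0.0459. Such values cannot show whether libraries of the same number were prepared together. Of 772 values of 52 single genes under the alternatives, 771 kept their direction and their side of the threshold. Those genes were the 39 members plus genes of the other lists, most of the latter taken for a small unadjusted p in limma. No gene among them passed in the main fit, so keeping that side of the threshold repeats that result. Implied fragments, a reading of the interval width, were fewest for Dlgap5, with 29.7 in its lowest library.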
